A study of Drosophila melanogaster with 8 samples.

Results

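Glutathione transferases couple the tripeptide glutathione to reactive compounds, which makes toxins, plant chemicals and the by-products of oxidised lipids more soluble and easier to remove. The family is divided into classes by sequence. Delta and Epsilon are the large insect classes and are known for their part in insecticide resistance, whereas Omega, Sigma, Theta and Zeta are shared with many other animals and include enzymes of pigment, lipid and amino acid metabolism. The 35 Drosophila genes described here are all rows of a gene expression table whose symbol starts with Gst and a class letter, 35 of 15240 rows. They comprise 11 Delta, 14 Epsilon, 3 Omega, 1 Sigma, 4 Theta and 2 Zeta genes. The rule uses the symbol only, but the family was chosen with earlier results of these data known.

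RNA was sequenced from whole heads of adult Drosophila melanogaster that were 6 days old and socially naive. The 4 groups were the wild-type line Canton-S (CantonS) raised at 19C, CantonS raised at 25C, and the hyper-aggressive line Bully, which has the Canton-S background, raised at 19C or at 25C. Each group had 2 libraries from about 90 heads each, which the series describes as independent biological replicates. Bully is a single line, so what goes with aggression cannot be told apart from any other difference between the 2 stocks, and the sex of the flies is not given in the sources used here. Within each group the libraries are named a and b, in the order in which values are listed, and the letters pair nothing across groups.

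Levels are RPKM as the authors computed them, the number of reads for each kilobase of a gene, relative to the reads of the library. The effective library sizes that the steps between RPKM values imply lay between 47.55 and 117.8 M reads (M, mega), lowest in CantonS 25C a. A count of 0 still allows for 3 reads, equal to 0.02548 to 0.06309 RPKM for a gene of 1 kilobase, a limit that covers counting error only. Genes whose mean reached 1 RPKM over the 8 libraries (8480 genes, 28 of the 35 transferases) were tested with limma, a linear model that pools the spread over genes, on log2(RPKM + 0.5). A gene is called higher or lower where the p-value, adjusted by the Benjamini-Hochberg method over all 8480 genes, was below 0.05. Differences are on the log2 scale with the standard error (SE) of the model. Markers of head cell types were present as labelled: the rhodopsin ninaE reached 8900 RPKM, and the glial gene repo had a mean of 5.833 RPKM. Of 10 midgut markers only Amy-p had a mean above 1 RPKM.

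In the BDGP6 annotation, which is newer than the dm3 and BDGP5 builds named for the reads, most of the family sits in tandem arrays. The Epsilon cluster on 2R (18396638 to 18409835) holds 10 genes in 13.2 kb with no other coding gene between them, in the order GstE10, GstE1 and then GstE2 to GstE9. The Delta cluster on 3R (12364776 to 12385624) holds all 11 Delta genes in 20.8 kb, with 1 other coding gene, CG10035, among them. Smaller groups are GstO3, GstO2 and GstO1 on 3L with the related gene se (8518885 to 8524866), GstZ1 and GstZ2 on 3R (9455517 to 9460652), and GstT1 and GstT2 on 2R (9605988 to 9608350). The genes that stand alone are GstE11, GstE12, GstE13, GstE14 and GstS1 on 2R and GstT3 and GstT4 on X. Neighbours in such arrays are close in sequence, and how the authors treated reads that match several copies is not given in the sources used here. Values of 22 members corresponded to whole reads and those of 5 (GstD2, GstO1, GstO3, GstT1 and GstZ1) to multiples of 0.5 reads, while no such step was found for the other 8.

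Epsilon transcripts made up most of the transferase RNA of the head. Summed over the members, the level averaged 720.4 RPKM over the 8 libraries (range 606.5 to 827.7), of which Epsilon gave 67.97%, Delta 16.92%, Zeta 4.779%, Theta 3.84%, Omega 3.515% and Sigma 2.978%. GstE12 alone accounted for 36.86%. Levels spanned from GstE12, with a mean of 265.5 RPKM, to GstD7, with 0.01689 RPKM. Of the 35 genes, 12 had a mean of at least 10 RPKM and 3 (GstE12, GstE9 and GstD1) of at least 50 RPKM. The order of levels within a cluster did not follow position. In the Epsilon cluster, GstE9 and GstE6 had means of 64.34 and 39.06 RPKM, and GstE4, between GstE3 and GstE5, had 0.2993 RPKM.

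**Figure D1:**
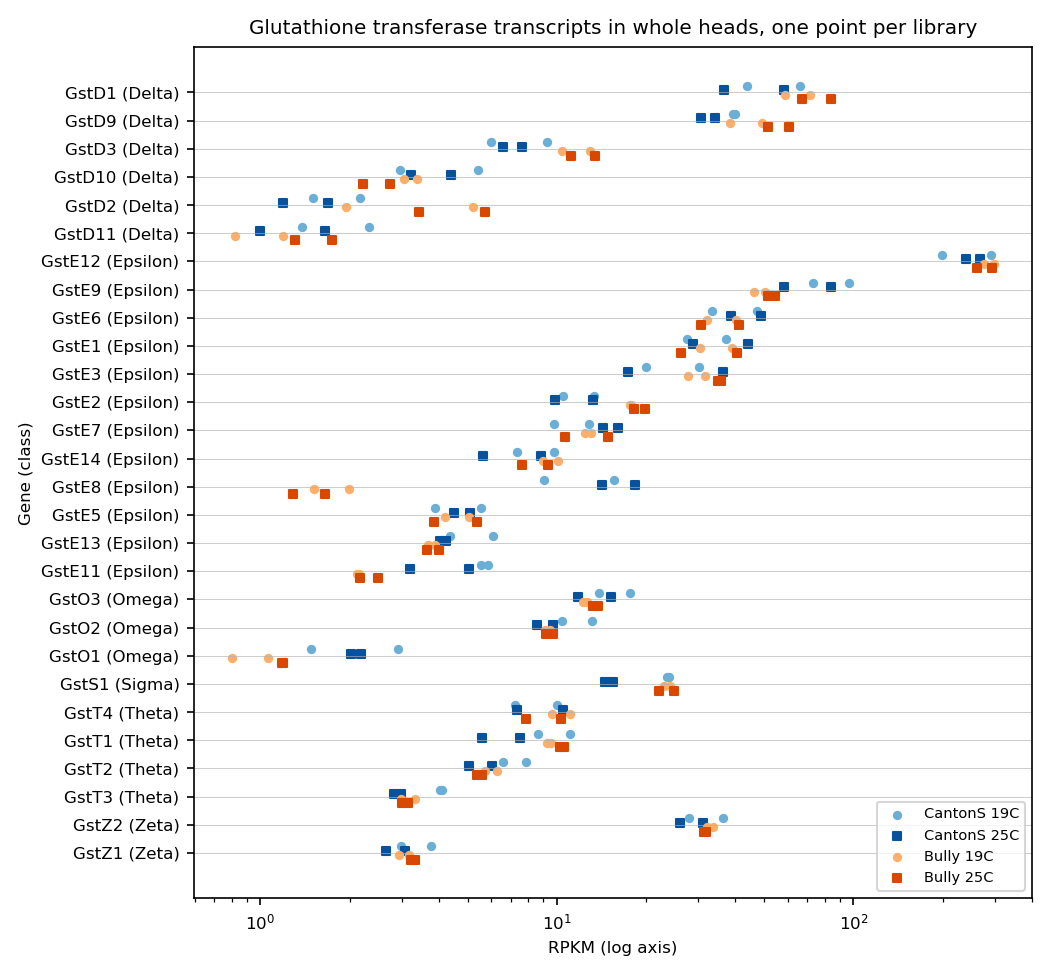
Level of each of the 28 tested glutathione transferase genes in the 8 libraries, in RPKM on a log axis, grouped by class and ordered by mean within a class; each point is 1 library, coloured by line with circles for 19C and squares for 25C. GstE12 lies near 265.5 RPKM in every group, and the CantonS and Bully points of GstE8 are widely separated.

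GstE12, the highest member of the Epsilon class, measured 198.9 and 291.0 RPKM in CantonS flies from 19C and 266.8 and 240.3 RPKM in those from 25C, with 275.2 and 297.8 RPKM in Bully flies from 19C and 293.2 and 260.9 RPKM in those from 25C. The lines overlapped, and it was called in no comparison. GstD1, the highest Delta gene, whose product can break down the insecticide DDT and which responds to oxidative stress, measured 43.89 and 65.93 RPKM in CantonS flies from 19C and 36.72 and 58.21 RPKM in those from 25C, with 58.93 and 71.66 RPKM in Bully flies from 19C and 83.9 and 67.25 RPKM in those from 25C. Bully had the 3 highest values and CantonS the 3 lowest of the 8. The difference averaged over temperatures was 0.48 (SE 0.19, limma adjusted p = 0.168) and did not pass.

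GstZ2, of the Zeta class, which in mammals isomerises an intermediate of tyrosine breakdown, measured 27.98 and 36.27 RPKM in CantonS flies from 19C and 26.03 and 31.05 RPKM in those from 25C, with 32.09 and 33.63 RPKM in Bully flies from 19C and 31.92 and 31.27 RPKM in those from 25C. GstO3, the highest of the Omega class, measured 13.92 and 17.65 RPKM in CantonS flies from 19C and 11.79 and 15.19 RPKM in those from 25C, with 12.29 and 12.66 RPKM in Bully flies from 19C and 13.72 and 13.2 RPKM in those from 25C. GstT4, the highest of the Theta class, measured 7.234 and 9.981 RPKM in CantonS flies from 19C and 10.53 and 7.32 RPKM in those from 25C, with 9.636 and 11.1 RPKM in Bully flies from 19C and 10.29 and 7.843 RPKM in those from 25C. For all 3 genes the 4 Bully libraries overlapped the 4 CantonS libraries, and none was called.

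Single members of the family differed between Bully and CantonS heads. GstE8 was lower in Bully at both temperatures, 8.857-fold over both, GstE11, GstE9 and GstO1 were lower at 19C and in the average over temperatures, and GstE2, GstD3 and GstD9 were higher in that average. Summed over the Epsilon genes, the level was 487.9 ± 119.5 RPKM (SD, n = 2) in CantonS flies from 19C and 495.7 ± 37.02 in those from 25C, with 488.0 ± 35.94 in Bully flies from 19C and 487.1 ± 49.25 in those from 25C, differences well within the spread between replicates. Because heads were measured in bulk, fewer cells of a type and less RNA per cell cannot be told apart in any of these results.

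GstE8 (2R, 18407834 to 18408955 in BDGP6) measured 9.025 and 15.64 RPKM in CantonS flies from 19C and 14.19 and 18.31 RPKM in those from 25C, with 1.518 and 1.992 RPKM in Bully flies from 19C and 1.659 and 1.286 RPKM in those from 25C. Every Bully library lay far below every CantonS library, with means of 1.614 and 14.29 RPKM, or 8.857-fold. In reads, the values correspond to 79 to 127 in a Bully library and 492 to 1343 in a CantonS library, so the low level in Bully was still a measured one. These reads imply a gene length of 729 bases, where BDGP6 has 1122 exonic bases for GstE8, so the gene model behind the value had another length. The difference was -3.08 (SE 0.25, limma adjusted p = 4.75e-04) at 25C, -2.47 (SE 0.25, adjusted p = 0.00106) at 19C and -2.77 (SE 0.18, adjusted p = 4.85e-05) averaged over temperatures. Its neighbours on the same strand had much smaller differences. GstE7, 145 bases away, had a mean of 12.74 RPKM in Bully and 13.24 in CantonS (-0.04, SE 0.13, adjusted p = 0.894, in the average), and GstE6 was likewise not called (-0.22, SE 0.16, adjusted p = 0.484).

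GstE9, which starts 92 bases beyond GstE8, measured 72.97 and 96.63 RPKM in CantonS flies from 19C and 58.45 and 84.36 RPKM in those from 25C, with 46.19 and 50.44 RPKM in Bully flies from 19C and 54.3 and 51.41 RPKM in those from 25C. All Bully libraries were below all CantonS libraries, by 1.544-fold in the means. It was lower at 19C (-0.79, SE 0.21, limma adjusted p = 0.0429) and in the average (-0.60, SE 0.15, adjusted p = 0.0382), and did not pass at 25C (-0.41, SE 0.21, adjusted p = 0.366). At 19C the call ended without any 1 Bully library or CantonS 19C b, with an adjusted p of up to 0.225. It also ended under quantile normalization (0.0523), with only the compared groups fitted (0.0602) and with the trend of differences on gene length removed, where the difference was -0.40 (0.101). The averaged call was lost without any 1 Bully library, CantonS 19C b or CantonS 25C b (up to 0.141). Exons of GstE9 overlap those of imd on the opposite strand, whose level, 3.542 to 5.573 RPKM, was far lower in every library.

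GstE11, which lies apart from the cluster on 2R (18503608 to 18505025 in BDGP6), measured 5.563 and 5.844 RPKM in CantonS flies from 19C and 3.21 and 5.071 RPKM in those from 25C, with 2.121 and 2.158 RPKM in Bully flies from 19C and 2.162 and 2.498 RPKM in those from 25C. Bully was below CantonS in every library and varied little. The means were 2.235 and 4.922 RPKM, 2.202-fold apart. It was lower at 19C (-1.23, SE 0.18, limma adjusted p = 0.00637) and in the average (-0.96, SE 0.13, adjusted p = 0.00279), with -0.69 (SE 0.18, adjusted p = 0.0961) at 25C. Leaving out any 1 library ended neither call.

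In the Epsilon cluster GstE2 (2R, 18399486 to 18400375) went the other way. It measured 10.49 and 13.35 RPKM in CantonS flies from 19C and 9.86 and 13.27 RPKM in those from 25C, with 17.7 and 17.82 RPKM in Bully flies from 19C and 19.78 and 18.26 RPKM in those from 25C. Every Bully library was above every CantonS library, by 1.566-fold in the means. The difference was 0.71 (SE 0.17, limma adjusted p = 0.0759) at 25C, 0.57 (SE 0.17, adjusted p = 0.0675) at 19C and 0.64 (SE 0.12, adjusted p = 0.0144) averaged over temperatures, the only one of the 3 that passed. That call was lost without either Bully 19C library or Bully 25C a (adjusted p 0.0559 to 0.0677).

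**Figure D2:**
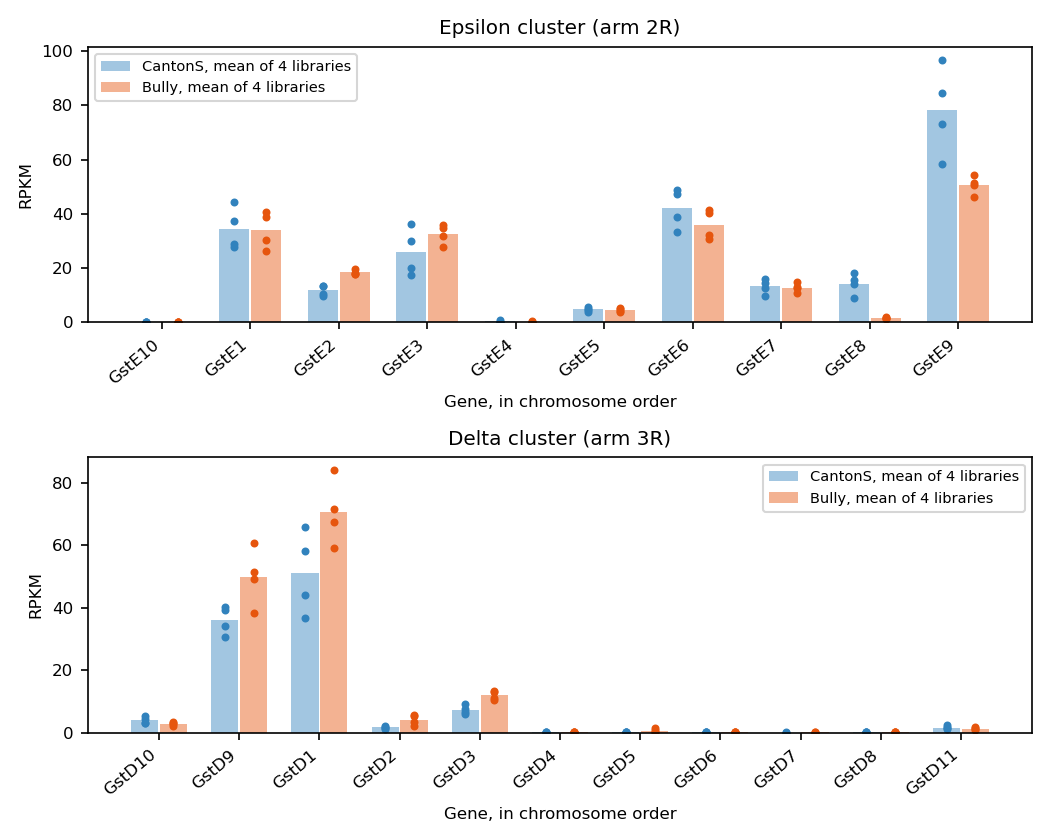
Mean level in RPKM over the 4 libraries of each line (bars) and each library (points) for the 10 genes of the Epsilon cluster, above, and the 11 genes of the Delta cluster, below, in chromosome order. GstE8, at 14.29 RPKM in CantonS and 1.614 in Bully, lies between GstE7 with similar bars and GstE9 at 78.1 and 50.58 RPKM; in the Delta cluster GstD9, GstD1, GstD2 and GstD3 have the taller bar in Bully.

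In the Delta class 2 genes were called, both higher in Bully. GstD3 (3R, 12373068 to 12373813) measured 5.979 and 9.254 RPKM in CantonS flies from 19C and 6.597 and 7.622 RPKM in those from 25C, with 10.42 and 12.9 RPKM in Bully flies from 19C and 13.4 and 11.12 RPKM in those from 25C. The 4 Bully libraries were above the 4 CantonS libraries, by 1.625-fold in the means. It passed in the average over temperatures (0.67, SE 0.15, limma adjusted p = 0.0256), not at 25C (0.74, SE 0.21, adjusted p = 0.113) or 19C (0.61, SE 0.21, adjusted p = 0.0941). The call was lost without Bully 19C b, either Bully 25C library or either CantonS 25C library, with an adjusted p of 0.0543 to 0.106.

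GstD9 (3R, 12366163 to 12367564) measured 40.03 and 39.29 RPKM in CantonS flies from 19C and 34.1 and 30.71 RPKM in those from 25C, with 38.31 and 49.05 RPKM in Bully flies from 19C and 51.53 and 60.79 RPKM in those from 25C. The lines were apart at 25C and overlapped at 19C. It was higher in Bully at 25C (0.78, SE 0.16, limma adjusted p = 0.0412) and in the average (0.45, SE 0.11, adjusted p = 0.0452), against 0.13 (SE 0.16, adjusted p = 0.63) at 19C. The effect of line was not shown to differ between temperatures (interaction 0.65, SE 0.23, adjusted p = 0.147). The averaged call did not survive leaving out any 1 of the 8 libraries (adjusted p 0.0556 to 0.217), and that at 25C was lost without any 1 Bully or CantonS 25C library (0.0595 to 0.27). The call at 25C ended as well under median-of-ratios rescaling, quantile normalization, with the length trend removed and with only the compared groups fitted (0.0636 to 0.112).

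GstD2, next to GstD3, had the largest positive difference among the members without passing. It measured 1.507 and 2.163 RPKM in CantonS flies from 19C and 1.69 and 1.195 RPKM in those from 25C, with 1.947 and 5.227 RPKM in Bully flies from 19C and 5.727 and 3.419 RPKM in those from 25C. Bully 19C a lay within the CantonS range and the other 3 Bully libraries above it. The averaged difference was 1.03 (SE 0.27, limma adjusted p = 0.0511). Summed over the Delta genes, the level was 110.5 ± 20.53 RPKM (SD, n = 2) in CantonS flies from 19C and 94.02 ± 14.48 in those from 25C, with 129.7 ± 22.13 in Bully flies from 19C and 153.4 ± 8.783 in those from 25C. GstD1 and GstD9 carried most of this sum. The other tested Delta genes, GstD10 and GstD11, had negative averaged differences that did not pass (-0.41, adjusted p = 0.204, and -0.23, adjusted p = 0.5).

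GstO1 (3L, 8523742 to 8524866), the lowest of the Omega genes, measured 1.481 and 2.911 RPKM in CantonS flies from 19C and 2.017 and 2.188 RPKM in those from 25C, with 0.8039 and 1.063 RPKM in Bully flies from 19C and 1.183 and 1.194 RPKM in those from 25C. Every Bully library was below every CantonS library, by 2.025-fold in the means. It was lower at 19C (-0.86, SE 0.23, limma adjusted p = 0.0464) and in the average (-0.74, SE 0.16, adjusted p = 0.0256), and did not pass at 25C (-0.62, SE 0.23, adjusted p = 0.216). At 19C the call ended without any 1 library other than CantonS 19C a (adjusted p 0.0625 to 0.239), with a difference between -1.26 (CantonS 19C a left out) and -0.47 (CantonS 19C b), and the averaged call without any 1 Bully or CantonS 25C library (0.0534 to 0.091). The call at 19C ended too under median-of-ratios rescaling, quantile normalization, with the length trend removed (-0.54) and with only the compared groups fitted (0.0501 to 0.122). GstO2 and GstO3 were not called.

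GstS1, the single Sigma gene, whose product conjugates products of lipid peroxidation, was low in 1 group. It measured 23.91 and 23.52 RPKM in CantonS flies from 19C and 15.5 and 14.56 RPKM in those from 25C, with 23.06 and 24.01 RPKM in Bully flies from 19C and 24.93 and 22.14 RPKM in those from 25C. The 2 CantonS 25C libraries were below the other 6, which lay between 22.14 and 24.93 RPKM. It was higher in Bully at 25C (0.63, SE 0.12, limma adjusted p = 0.0334) and lower at 25C than at 19C in CantonS (-0.64, SE 0.12, adjusted p = 0.0411), 2 comparisons that share the CantonS 25C libraries. At 19C the line difference was -0.01 (SE 0.12, adjusted p = 0.966), and the interaction was 0.64 (SE 0.18, unadjusted p = 0.00598, adjusted p = 0.108), which did not pass. The line call at 25C was lost without any 1 Bully or CantonS 25C library (adjusted p 0.0889 to 0.192), and the temperature call without any 1 Bully library, CantonS 19C b or CantonS 25C a (0.0689 to 0.217). Quantile normalization and fitting only the compared groups ended both (0.0585 to 0.164), and removing the length trend or the filter ended that for temperature (0.0994 and 0.0788).

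**Figure D3:**
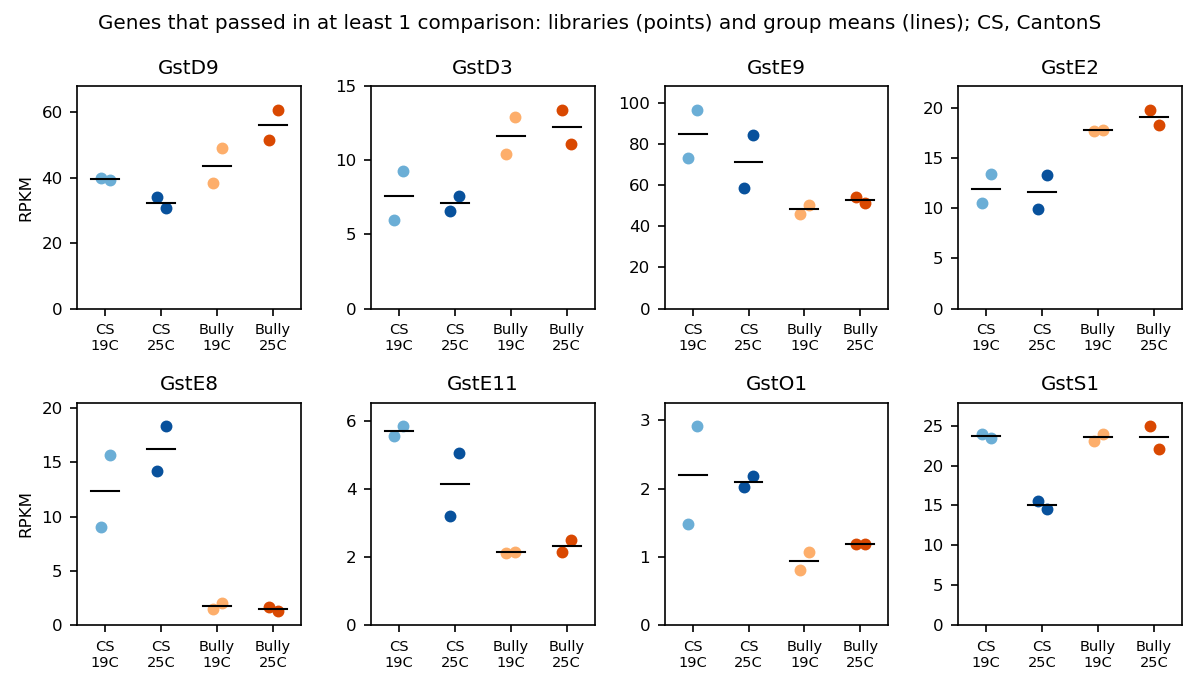
RPKM of the 8 genes that were called in at least 1 comparison, with 1 point per library and a line at each group's mean of 2; every vertical axis starts at 0. GstE8, GstE11, GstE9 and GstO1 have their 4 Bully points below the CantonS points, GstE2 and GstD3 above them, and GstS1 is low only in CantonS 25C, at 14.56 and 15.5 RPKM.

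Counted over the family, 3 of 28 tested members were called between the lines at 25C, GstS1 and GstD9 higher and GstE8 lower in Bully, beside 1.86% of all tested genes called higher and 1.17% lower. At 19C 4 of 28 were called, all lower in Bully (GstE8, GstE11, GstE9 and GstO1), against a background of 3.44% higher and 8.07% lower. Averaged over temperatures there were 3 higher (GstE2, GstD3 and GstD9) and 4 lower (GstE8, GstE11, GstE9 and GstO1), against 4.38% and 4.41% of all tested genes. The 3 line comparisons use the same libraries and are not independent. The median difference of the tested members was 0.06 at 25C, -0.03 at 19C and -0.03 averaged, where the medians of all tested genes were 0.05, -0.05 and 0.00. By class, the averaged calls were 2 higher of 6 tested Delta genes, 1 higher and 3 lower of 12 Epsilon genes and 1 lower of 3 Omega genes, with no call among the 4 Theta, 2 Zeta and 1 Sigma genes. Without the filter on low values, the limma model was fitted again on 14439 genes and the adjustment ran over all of them. GstD3, GstD9, GstE9 and GstO1 then lost all their calls (adjusted p 0.0553 to 0.0938).

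Without a test, 2 members (GstE2 and GstD3) had all 4 Bully libraries above all 4 CantonS libraries, 7.143% of those tested, beside 7.05% of all tested genes. For 5 members (GstE8, GstE9, GstE11, GstE13 and GstO1), or 17.86%, all Bully libraries were below, beside 6.33% of all tested genes. GstE13 was the 1 of these 7 that was not called, at 3.652 to 4.005 RPKM in Bully and 4.043 to 6.084 in CantonS (averaged difference -0.25, SE 0.11, limma adjusted p = 0.208). Its exons overlap those of CG18659 on the opposite strand, whose level, 6.816 to 8.697 RPKM, was higher in every library. Whether counting used strand is not given in the sources used here.

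**Figure D4:**
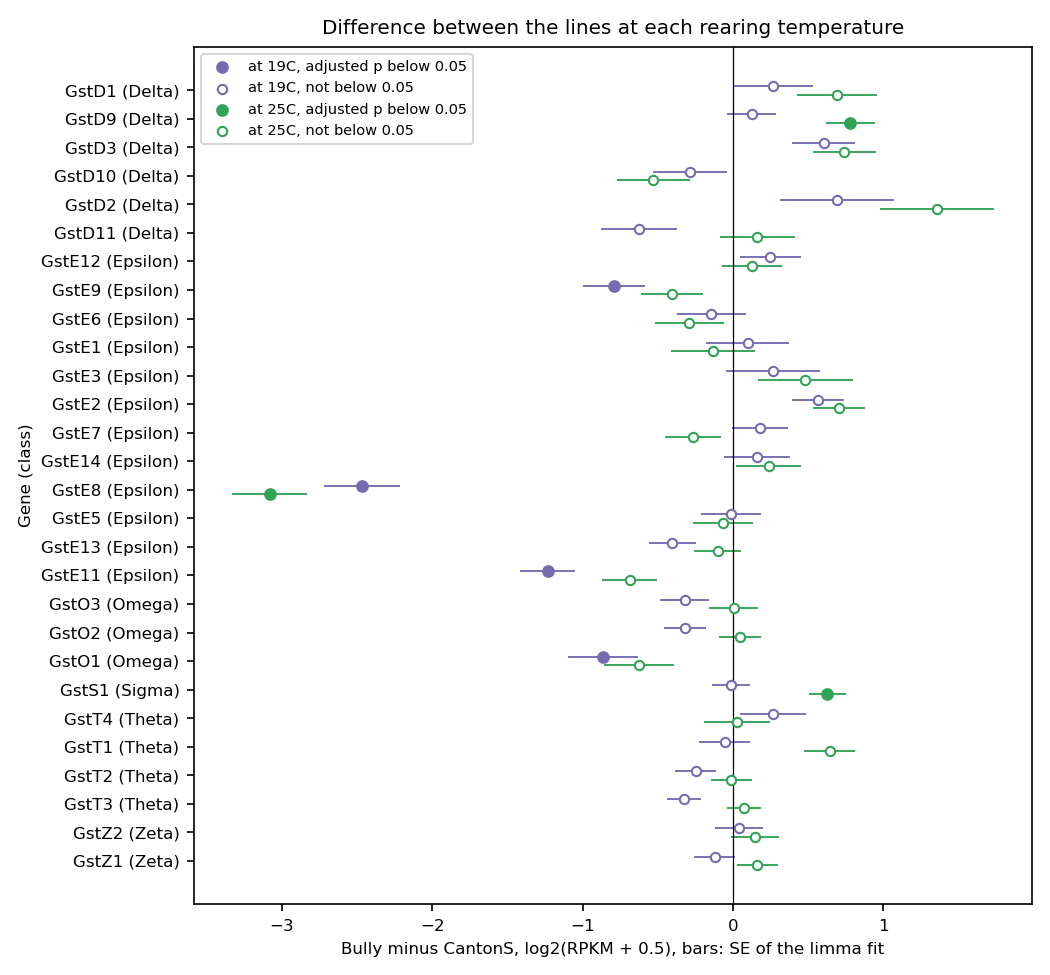
Bully minus CantonS on the scale of log2(RPKM + 0.5) for the 28 tested members at 19C and at 25C, with bars of 1 SE of the limma fit and filled points for an adjusted p below 0.05. GstE8, at -2.47 and -3.08, lies far to the left of all other members, and most others lie within 1 log2 unit of 0.

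Between rearing temperatures 1 member was called. In CantonS, GstS1 was the only member called, lower at 25C, of 28 tested, beside 1.06% of all tested genes called higher and 5.35% lower at 25C. At an unadjusted p below 0.05 there were 6 members (GstS1, GstT1, GstE11, GstT3, GstT2 and GstO2), or 21.4%, below the 31.9% of all tested genes. The Theta genes GstT3 (-0.43, SE 0.11, limma adjusted p = 0.0548) and GstT1 (-0.56, SE 0.17, adjusted p = 0.0715) were nearest to passing. The median of the members was -0.21 and that of all tested genes -0.11, and rescaling each library by the median of ratios moved the latter to 0.01, so the members are to be read against a shift of the whole table. Under that rescaling GstS1 no longer passed (-0.52, adjusted p = 0.0733), and of all 8480 genes 0 were called, against 544 without it.

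In Bully, limma called no member between temperatures, beside 0% of all genes higher and 0.0236% lower at 25C. At an unadjusted p below 0.05 there were 0 members, beside 3.21% of all tested genes. The differences lay between -0.33 (GstD10) and 0.43 (GstD11). Averaged over lines, limma again called none, with 3 members (GstS1, GstT3 and GstT2), or 10.7%, at an unadjusted p below 0.05 beside 11.9% of all tested genes, where 0.0118% of all genes were called higher and 0.0708% lower. The line by temperature interaction was called for no member and for 0% of all genes, with 4 members (GstS1, GstT1, GstD9 and GstT3), or 14.3%, at an unadjusted p below 0.05 beside 23.8% of all tested genes. GstT1 had a line difference of 0.64 (SE 0.17, adjusted p = 0.0902) at 25C and -0.05 (SE 0.17, adjusted p = 0.861) at 19C, with an interaction of 0.70 (SE 0.24, adjusted p = 0.138). GstE14, known as noppera-bo and needed for ecdysteroid synthesis, was at 5.652 to 10.12 RPKM and was called in no comparison.

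The 7 members below the filter were the Delta genes GstD4, GstD5, GstD6, GstD7 and GstD8 and the Epsilon genes GstE4 and GstE10. GstD7 was near the floor, with 0 to 3 reads in a library, and GstE10 had 0 to 8 reads. GstD5 had 10, 71, 47 and 15 reads in the 4 Bully libraries and 3, 15, 4 and 7 in the 4 CantonS libraries, groups that overlapped. In the same model without the filter none of the 7 passed in any comparison, and the averaged difference of GstD5 was 0.73 (SE 0.34, limma adjusted p = 0.28). Replicates of 1 group lay far apart in such counts, as with the 10 and 71 reads of GstD5 in the Bully flies from 19C.

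Replicates differed in ways that many members shared. In CantonS 19C, 26 of the 28 tested members were higher in library b than in a, by a median of 0.41 on the log2 scale, where 64.49% of all tested genes were higher in b with a median of 0.12. In Bully 19C, 26 of 28 were higher in b (median 0.13), beside 48.11% of all genes. The numbers were 6 of 28 in Bully 25C, beside 46.16%, and 21 of 28 in CantonS 25C, beside 55.39%. The part of this shared spread in the line and temperature differences was not tested beyond leaving out each library.

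Of the other genes of glutathione and redox metabolism, 34 of 39 were tested. CG32495 has the same values as GS in every library, so the 2 cannot be separated, and counting them once leaves 33 measurements. Averaged over temperatures 3 were higher and 0 lower in Bully, beside the 4.38% and 4.41% of all tested genes given above. At 25C 2 were higher and 0 lower (all genes 1.86% and 1.17%), and at 19C 1 was higher and 1 lower (all genes 3.44% and 8.07%). Between temperatures 1 was lower at 25C in CantonS, where 5.35% of all genes were, and limma called 0 in Bully, 0 averaged over lines and 0 in the interaction. At an unadjusted p below 0.05 those last 3 comparisons held 2, 4 and 11 of the 33, beside 272, 1009 and 2018 of the 8480 genes tested. In glutathione synthesis, GS, glutathione synthetase, measured 103.1 and 114.1 RPKM in CantonS flies from 19C and 66.47 and 84.79 RPKM in those from 25C, with 140.7 and 151.2 RPKM in Bully flies from 19C and 168.8 and 140.9 RPKM in those from 25C. All Bully libraries were above all CantonS libraries. It was higher at 25C (1.03, SE 0.17, limma adjusted p = 0.0173) and in the average (0.73, SE 0.12, adjusted p = 0.00793). At 25C the call ended without either Bully 25C library or CantonS 25C a (adjusted p 0.066 to 0.132), and with only the compared groups fitted (0.0558). The subunits of the enzyme for the first step of synthesis, Gclc and Gclm, were not called (averaged 0.16, adjusted p = 0.348, and 0.35, adjusted p = 0.324).

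Next to the Omega genes, se, an Omega-type enzyme that makes a precursor of the red eye pigments, measured 26.5 and 25.63 RPKM in CantonS flies from 19C and 12.13 and 17.2 RPKM in those from 25C, with 29.48 and 38.63 RPKM in Bully flies from 19C and 31.93 and 29.33 RPKM in those from 25C. CantonS 25C was lowest, and all Bully libraries were above all CantonS libraries. It was higher in Bully at 25C (1.06, SE 0.19, limma adjusted p = 0.0235) and in the average (0.71, SE 0.14, adjusted p = 0.0144), and lower at 25C than at 19C in CantonS (-0.83, SE 0.19, adjusted p = 0.047). The line call at 25C was lost without either Bully 25C library or CantonS 25C a (0.126 to 0.15), the averaged one without Bully 19C b or Bully 25C a (0.0683 and 0.0675), and the temperature call without any 1 Bully library, CantonS 19C b or CantonS 25C a (0.0758 to 0.257). The line call at 25C also ended with no filter and with only the compared groups fitted (0.0585 and 0.0518). That for temperature ended also with no filter, median-of-ratios rescaling, quantile normalization, only the compared groups, or the length trend removed (0.0786 to 0.207), the difference being -0.43 in the last. Its neighbour GstO1 was lower in Bully, and GstO2, whose exons overlap those of se on the opposite strand, was at 9.37 and 10.46 RPKM in Bully and CantonS and was not called.

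Men, malic enzyme, a source of the NADPH that keeps glutathione reduced, measured 66.12 and 71.54 RPKM in CantonS flies from 19C and 50.85 and 62.26 RPKM in those from 25C, with 112.0 and 105.3 RPKM in Bully flies from 19C and 76.01 and 67.99 RPKM in those from 25C. The lines were apart at each temperature. It was higher in Bully at 19C (0.66, SE 0.15, limma adjusted p = 0.0303) and in the average (0.50, SE 0.11, adjusted p = 0.024). Both calls ended without any 1 Bully library (0.0526 to 0.201), that at 19C also without CantonS 19C b (0.0585) and the averaged one without CantonS 25C a (0.0569). The glutaredoxin gene CG6852 measured 49.31 and 54.91 RPKM in CantonS flies from 19C and 31.57 and 37.86 RPKM in those from 25C, with 30.34 and 34.43 RPKM in Bully flies from 19C and 34.68 and 28.05 RPKM in those from 25C. CantonS 19C was highest, and its level in Bully was lower at 19C (-0.68, SE 0.16, adjusted p = 0.0338). That call was lost without either Bully 19C library or CantonS 19C b (0.102 to 0.229). It also ended under quantile normalization (0.0555), with only the compared groups fitted (0.0501) and with the length trend removed, where the difference was -0.25 (0.287). No other of the 15 tested genes of peroxide and superoxide defence was called in any comparison. Of the regulators, cnc, a transcription factor that activates detoxification genes, its inhibitor Keap1 and its partner maf-S were called in none. The smallest adjusted p for cnc was 0.0556, at 19C (0.43, SE 0.12).

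Markers of other tissues were called between the groups as well. The fat body, a tissue rich in detoxification enzymes, has marker genes whose sum over 9 genes was 351.9 to 427.9 RPKM in CantonS flies from 19C and 322.8 to 398.3 in those from 25C, with 806.5 to 842.0 in Bully flies from 19C and 412.1 to 448.2 in those from 25C. Lsp2 alone had means of 381.9 RPKM in Bully and 99.3 in CantonS at 19C, and 138.8 and 63.45 at 25C. Of 5 tested fat body markers 2 were higher in Bully in the average and none lower, beside 4.38% and 4.41% of all tested genes. At 19C 3 were higher and 0 lower (all genes 3.44% and 8.07%), and at 25C 2 and 0 (1.86% and 1.17%). Between temperatures 1 was higher and 1 lower at 25C in CantonS (all genes 1.06% and 5.35%). In Bully 1 was lower at 25C (0.0236%), as was 1 averaged over lines (0.0708%). The untested ones had means below 1 RPKM. Of these, Lsp1alpha, Lsp1gamma and Fbp1 had lower means in Bully at each temperature, and Fbp2 at 19C only. The storage protein genes Lsp1beta (3.18, SE 0.08, limma adjusted p = 2.52e-07) and Lsp2 (1.54, SE 0.16, adjusted p = 7.97e-04) were the 2 higher in the average over temperatures. Rfabg, Apoltp (listed as CG15828) and to were not called in that average. The hemocyte markers summed to 51.96 to 54.87 RPKM in CantonS flies from 19C and 74.14 to 103.2 in those from 25C, with 81.06 to 94.49 in Bully flies from 19C and 73.9 to 96.5 in those from 25C, lowest in CantonS 19C. Of 8 tested, 2 were higher in Bully in the average and 4 at 19C, and 5 were higher at 25C than at 19C in CantonS. The shares of all tested genes called higher in these comparisons were 4.38%, 3.44% and 1.06%. In the average 2 of 8 glial markers were higher and 1 lower in Bully, as were 2 and 1 of 11 photoreceptor markers. The 6 tested neuronal markers were called in no comparison. The part of tissue makeup in the transferase differences was not tested.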

How the data were processed

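Total RNA from about 90 whole heads per sample was extracted with Trizol and sequenced, per the labels' protocols. The authors deposited RPKM per gene. TopHat2 2.0.4, edgeR 3.8.6 and the builds dm3 and BDGP5 are named in the submitters' processing notes. The annotation, the counting and whether it used strand are not given in the sources used here. Library columns carry a group name but no replicate number, so replicates were not paired.

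RPKM values were tested as log2(RPKM + 0.5) in R 4.3.3 by limma 3.58.1 (moderated statistics with a trend in the variance), with 4 group means over all 8 libraries, for genes whose mean reached 1 RPKM. There were 4 residual and 4.47 prior degrees of freedom. Tests were two-sided, adjusted within each of 7 comparisons over all genes tested. The pseudocount understates differences of low genes. Reads per gene and effective library sizes were recovered from steps between RPKM values (tolerance 1e-06 reads) for 27 members, of which 8 had the exon length of BDGP6. These reads were not used in tests. The model was tested on simulated data with noise drawn independently for each gene and library. Spread between replicates that many genes share, as seen here, was not simulated, so that test does not cover it.

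The members and gene lists were chosen with earlier results of these data known. Values in every library are given for members called in any comparison and for the highest member of each class; GstD2 and GstE13 were added after their values were seen. Of the other redox genes, up to 6 called per comparison are named. The alternatives were other pseudocounts, no filter or a mean of at least 5 RPKM, median-of-ratios and quantile scaling, removal of each library's length trend, no variance trend, only the groups compared, and each library left out. Running them on the other redox genes was decided after seeing the data.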

Additional observations from a re-analysis of the deposited data

How the results depend on the processing

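No paired analysis was possible because the library columns carry no replicate number. GstE8 (at 25C, 19C and averaged) and GstE11 (19C and averaged) kept their direction and their call in every alternative that tested them, GstE8 with log2 differences from -3.38 to -2.09. No called member changed direction in any alternative. The counts of called members were less stable, and the cause was not tested. At 25C the 3 members called between the lines became 1 under quantile normalization and with only the compared groups fitted, and 6 with the length trend removed. All genes called at 25C were 257 of 8480 as reported, then 279, 166 and 346 of 8368, in that order. The 6 included GstT1, GstE2, GstE11 and GstO1, not called at 25C as reported. At 19C the 4 became 2 with no filter and with only the groups compared. All genes called were then 998 of 14439 and 665 of 8480, against 976 as reported. With a mean of at least 5 RPKM, GstE11 (3.578 RPKM) and GstO1 (1.605 RPKM) were not tested, and GstE8 and GstE9 kept their calls. GstE2 passed at 19C under median-of-ratios rescaling, quantile normalization and with the length trend removed, and GstD3 in the last. The 7 of the average became 4 with no filter, GstS1 newly among them. They became 10 with the length trend removed, which added GstT1, GstD1 and GstD2. All genes called in these 2 settings were 969 of 14439 and 1025 of 8368, against 745 of 8480 as reported. The 1 member called for temperature in CantonS became 0 with no filter, median-of-ratios rescaling, quantile normalization, the length trend removed, or only the groups compared. All genes called for it fell from 544 of 8480 to 2 of 14439, 0, 17, 0 of 8368 and 4, in that order. Leaving out each library also moved the counts of called members between the lines, for temperature in CantonS and for the interaction. The counts of all genes called moved as well, so the member counts are not a result about the family. For the interaction the only member called was GstE11, without CantonS 25C b, when more of all genes were called than as reported. Without CantonS 19C a, 8 members at 19C and 6 for temperature in CantonS were called, all lower in Bully and at 25C; all genes called then rose from 976 to 1996 and from 544 to 2261. For temperature in Bully and averaged over lines the count stayed at 0 in every alternative. GstD2, not called as reported, passed in the average with a pseudocount of 0.1, under median-of-ratios rescaling and with the length trend removed, in the average and at 25C without Bully 19C a, and at 25C without Bully 19C b. A left-out library leaves a group with 1 sample, which is assumed to vary like the others. Leaving out any 1 Bully library also left fewer genes of the whole table called in each line comparison. Calls of members lost that way are to be read against this general loss. Other calls were lost although more genes of the whole table were called. In the average these were GstD9, without either CantonS 19C library, and GstE9, without CantonS 19C b. At 19C it was GstO1, without either CantonS 25C library. The 7 members below 1 RPKM had 0 to 92 reads in a library, and GstD7, with 0 to 3, lies at what a count of 0 allows.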
